A study of Mus musculus with 55 samples.

Results

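The genes Gcc1, Gm42887, Gm12735, Sh3bp2, Kifc3, Ide and Dpy19l4 were chosen by a higher level of their RNA in oocytes of at least 1 ADD mutant than in wild-type oocytes. They are 7 of the 51734 genes listed in the count files, and all 7 were among the 15726 genes that passed a filter on low counts. Since the members were selected on their own differences between mutant and wild-type fully grown oocytes (FGOs), those differences are given here as a description, with no test. The comparisons with metaphase II (MII) oocytes, the split of the wild-type FGOs and the allelic counts of embryos did not enter the choice. The wild-type FGOs did enter it, and they stand on 1 side of the MII comparison and on both sides of the split.

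DNMT3A and its catalytically inactive partner DNMT3L join in a complex that methylates DNA in the growing oocyte. The ADD domain of each protein binds the tail of histone H3 when its lysine-4 is unmethylated, and both mutations replace residues of that domain that take part in this binding. The FGO makes little new RNA, and most of its stock was laid down during growth and serves meiotic maturation and the early embryo.

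The oocyte data are 52 libraries of 1 cell each, prepared by SMART-Seq HT. They comprise 18 wild-type FGOs, 8 Dnmt3L-ADD FGOs (Dnmt3a +/+, Dnmt3L D124A/D124A), 8 Dnmt3a-ADD FGOs (Dnmt3a ADA/ADA, Dnmt3L +/+), 8 double mutant FGOs (Dnmt3a ADA/ADA with Dnmt3L D124A/D124A) and 10 wild-type MII oocytes, and 3 E9 embryos came from double mutant oocytes fertilized by wild-type JF1 sperm. FGOs were taken from ovaries of adults aged 10 to 12 weeks and freed of cumulus cells, and the 2 mutant lines were bred onto a C57BL/6J background. The FGOs were pooled before single cells were picked, so the animal behind each library is not known, and any p-value measures the spread between oocytes only.

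The total count per oocyte library lay between 7832458 and 23739871. In the study's summary of reads, fewer than 80% of the reads were mapped in wild-type FGO replicates 1 to 8, in all 8 double mutant FGOs, in 3 Dnmt3a-ADD FGOs and in 3 MII oocytes, and at least 80% in all other oocyte libraries. The genotype of the double mutant therefore cannot be told apart from this class except against wild-type FGO replicates 1 to 8, nor that of Dnmt3L-ADD FGOs except against replicates 9 to 18. All 14 oocyte markers were detected in every group. Their level was summed in CPM (counts divided by the library total, unscaled for marker sums and scaled for single genes unless stated). The sum was 9529 to 15840 in wild-type, 9413 to 12220 in Dnmt3L-ADD, 9104 to 11040 in Dnmt3a-ADD and 13430 to 16470 in double mutant FGOs. On this unscaled measure the double mutant lay wholly above both single mutants, and MII oocytes had 9666 to 10350. Wild-type replicates 1 to 8, of the double mutant's class, had 9529 to 15840 (median 13810, against 14230 in the double mutant). Wild-type replicates 9 to 18 had 11400 to 12420. Theca, stroma and smooth muscle markers summed to 5.56 to 43.3 CPM in wild-type, 3.74 to 14.2 CPM in Dnmt3L-ADD and 3.61 to 71.8 CPM in Dnmt3a-ADD FGOs. The sum was 2.35 to 4.46 CPM in double mutant FGOs, where Acta2 and Lum were at 0. The 12 granulosa and cumulus markers summed to 117 to 279 CPM in FGOs (wild type 129 to 279, Dnmt3L-ADD 123 to 163, Dnmt3a-ADD 117 to 214, double mutant 126 to 165). The part of these markers in the results was not tested, beyond a fit with the granulosa and cumulus markers as a covariate. The RNA of the mutated genes was present in every FGO, at 247 to 361 CPM for Dnmt3a and 80.8 to 158 CPM for Dnmt3l, and substitutions leave a gene's count uninformative on the genotype.

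Levels between genes were compared per kilobase of exon (RPKM). In wild-type FGOs the median was 27.0 RPKM for Sh3bp2, 13.6 for Ide, 11.5 for Kifc3, 9.98 for Gm12735, 5.37 for Dpy19l4, 2.13 for Gcc1 and 1.53 for Gm42887. All levels within a gene are given below in CPM with library totals scaled by the trimmed mean of M values (TMM) over the 52 libraries, and fold changes on the log2 scale come from 1 edgeR fit of the 42 FGOs, with standard errors (SE).

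**Figure D1:**
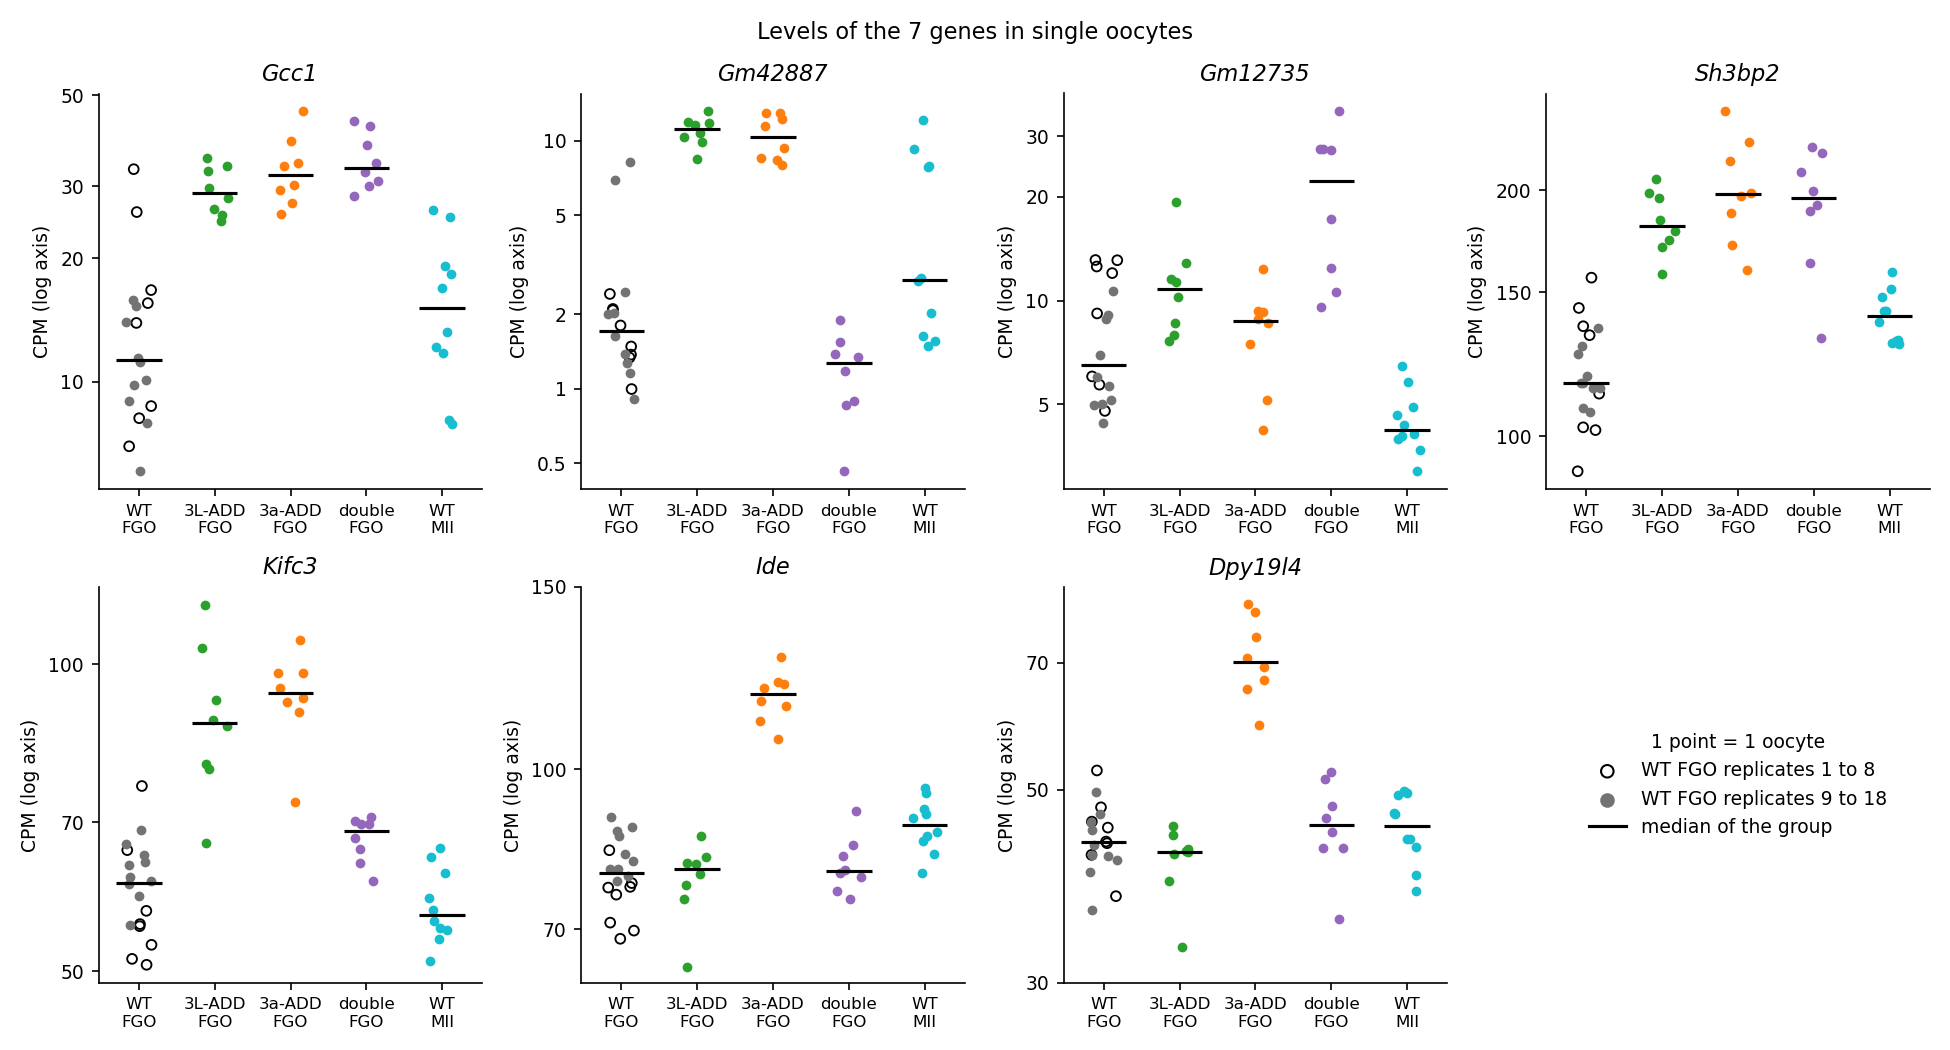
Level of each gene in each of the 52 oocytes, in CPM on a log axis, by group. Each point is 1 oocyte, open circles are wild-type FGO replicates 1 to 8, filled grey circles are replicates 9 to 18, and bars mark the group median. Gcc1 and Sh3bp2 were high in all 3 mutants, Gm42887 and Kifc3 in both single mutants, Ide and Dpy19l4 in Dnmt3a-ADD FGOs and Gm12735 in double mutant FGOs.

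Gcc1 and Sh3bp2 were higher in all 3 mutants. Gcc1 (chr6:28416091-28428390 in mm10, minus strand) encodes a GRIP-domain golgin, a coiled-coil tether of the trans-Golgi. Its level in wild-type FGOs was lowest at 6.05, with a median of 11.3 and a highest value of 33.0 CPM. In Dnmt3L-ADD FGOs it lay between 24.7 and 35.1 CPM (median 28.9), in Dnmt3a-ADD FGOs between 25.6 and 45.6 CPM (median 31.9) and in double mutant FGOs between 28.4 and 43.3 CPM (median 33.3). The groups overlapped because of wild-type replicates 5 (33.0 CPM) and 6 (25.9 CPM), and all other wild-type FGOs were below every mutant oocyte. The log2 fold change was 1.14 ± 0.18 (SE, n = 8 and 18) in Dnmt3L-ADD, 1.31 ± 0.18 in Dnmt3a-ADD and 1.38 ± 0.18 in double mutant FGOs. The neighbours in the order of these 3 groups differed by no more than their spread.

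Wild-type replicates 1 to 8 held both high oocytes, with a median of 14.7 CPM and a coefficient of variation of 56.9%, against 10.6 CPM and 28.7% in replicates 9 to 18. Within the class of mapped reads, the log2 fold change of Gcc1 was 1.42 in Dnmt3L-ADD FGOs against replicates 9 to 18 and 1.10 in double mutant FGOs against replicates 1 to 8. Against replicates 9 to 18 alone, whose highest value was 15.8 CPM, none of the 3 mutant groups overlapped wild type.

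Sh3bp2 (chr5:34525838-34563641, plus strand) encodes 3BP2, an SH2-domain adaptor that binds ABL and SRC family kinases. It was the member with the highest level, 90.5 to 156 CPM in wild-type FGOs (median 116). It lay between 158 and 206 CPM (median 181) in Dnmt3L-ADD, between 160 and 250 CPM (median 198) in Dnmt3a-ADD and between 132 and 226 CPM (median 196) in double mutant FGOs. Both single mutants stood wholly above wild type, and in the double mutant replicate 4 (131.8 CPM) fell inside the wild-type range while the other 7 were above it. The log2 fold changes were 0.61, 0.75 and 0.67 (SE 0.08 each), and against the wild-type FGOs of the same class they were 0.63 in Dnmt3L-ADD and 0.65 in double mutant FGOs.

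The 250 bases before 1 RefSeq start of Gcc1 and before both RefSeq starts of Sh3bp2 (build GRCm38.p6) are shown. They were chosen because these genes were higher in every mutant. Capitals mark CG, a dinucleotide that reads the same on both strands. The enzyme methylates CG and also non-CG sites. All 3 starts lie inside the span that the files give for the gene.
Gcc1 chr6:28421725-28421974 minus strand: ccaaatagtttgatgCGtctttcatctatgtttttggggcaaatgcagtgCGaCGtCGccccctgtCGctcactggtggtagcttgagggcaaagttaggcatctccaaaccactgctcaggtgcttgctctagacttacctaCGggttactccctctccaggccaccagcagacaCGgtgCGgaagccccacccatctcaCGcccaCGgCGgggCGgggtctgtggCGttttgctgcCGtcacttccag
Sh3bp2 chr5:34543115-34543364 plus strand: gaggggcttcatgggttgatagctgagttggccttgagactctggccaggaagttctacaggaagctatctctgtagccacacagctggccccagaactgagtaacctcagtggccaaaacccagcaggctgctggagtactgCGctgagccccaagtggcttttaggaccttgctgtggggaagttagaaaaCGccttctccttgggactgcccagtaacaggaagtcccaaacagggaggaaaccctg
Sh3bp2 chr5:34549326-34549575 plus strand: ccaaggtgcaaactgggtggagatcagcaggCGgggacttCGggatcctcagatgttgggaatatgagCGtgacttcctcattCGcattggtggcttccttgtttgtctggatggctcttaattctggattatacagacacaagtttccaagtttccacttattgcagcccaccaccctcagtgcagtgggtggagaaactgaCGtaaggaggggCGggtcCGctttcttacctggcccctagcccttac
The Gcc1 stretch held 14 CG, and 29.4% of 32851 promoters of the same length held at least as many. The Sh3bp2 stretches held 2 and 7 CG, against 81.2% and 46.3% of promoters with at least as many and a median of 6. Of the 7 members, 3 had a promoter in the table, and DNA methylation was not measured in these libraries.

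Kifc3 was higher in both single mutants and closer to the wild-type level in the double mutant. It encodes a kinesin-14 motor that walks to the minus end of microtubules (chr8:95099828-95202812, minus strand). Its level in wild-type FGOs was 50.7 to 75.9 CPM (median 61.0), in Dnmt3L-ADD FGOs 66.7 to 114 CPM (median 87.6), in Dnmt3a-ADD FGOs 73.3 to 106 CPM (median 93.7) and in double mutant FGOs 61.2 to 70.8 CPM (median 68.6). In each single mutant 7 of 8 oocytes were above the highest wild-type FGO, replicate 8 at 75.9 CPM, and none of the double mutant FGOs was. The log2 fold changes were 0.55 ± 0.07 (SE), 0.62 ± 0.07 and 0.14 ± 0.07. Within the class of mapped reads they were 0.51 in Dnmt3L-ADD FGOs against replicates 9 to 18 and 0.21 in double mutant FGOs against replicates 1 to 8. Wild-type replicates 1 to 8 had a median of 55.5 CPM, and 2 of them reached the lowest double mutant FGO.

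Ide and Dpy19l4 were higher in Dnmt3a-ADD FGOs and lay within or next to the wild-type range in the other mutants. Ide (chr19:37268743-37337852, minus strand) encodes the insulin-degrading zinc metallopeptidase. It measured 68.5 to 89.9 CPM in wild-type FGOs (median 79.4) and 107 to 128 CPM in Dnmt3a-ADD FGOs (median 118), with no overlap. In Dnmt3L-ADD FGOs it measured 64.3 to 86.1 CPM (median 79.98) and in double mutant FGOs 74.9 to 91.1 CPM (median 79.6). The log2 fold change in Dnmt3a-ADD FGOs was 0.56 ± 0.05 (SE), against -0.03 ± 0.05 and 0.02 ± 0.05 in the other mutants. The 3 Dnmt3a-ADD oocytes with fewer reads mapped had 115 to 128 CPM and the other 5 had 107 to 121 CPM.

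Dpy19l4 (chr4:11261315-11322137, minus strand) belongs to the DPY19 family of C-mannosyltransferases of the endoplasmic reticulum. It measured 36.4 to 52.6 CPM in wild-type FGOs (median 43.5) and 59.4 to 81.7 CPM in Dnmt3a-ADD FGOs (median 70.1), again with no overlap. In Dnmt3L-ADD FGOs it measured 33.0 to 45.4 CPM (median 42.5) and in double mutant FGOs 35.5 to 52.4 CPM (median 45.6). The log2 fold change was 0.70 ± 0.06 (SE) in Dnmt3a-ADD FGOs, -0.09 ± 0.06 in Dnmt3L-ADD FGOs and 0.04 ± 0.06 in double mutant FGOs. The Dnmt3a-ADD oocytes of both classes lay above every wild-type FGO, from 66.9 CPM in the class with fewer reads mapped and from 59.4 CPM in the other.

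Gm12735 was well above wild type in the double mutant and near the wild-type range in the single mutants. It is annotated in the antisense class of noncoding RNAs (chr11:3193516-3194263, minus strand) and has 2 exons, and its downstream end lies 53 bases before the start of Sfi1, a centrosomal protein gene read from the same strand. Its exon next to Sfi1 is shown in the direction of transcription because it is the part of the gene nearest to that start, with its 11 CG in capitals.
Gm12735 chr11:3193516-3193714 minus strand: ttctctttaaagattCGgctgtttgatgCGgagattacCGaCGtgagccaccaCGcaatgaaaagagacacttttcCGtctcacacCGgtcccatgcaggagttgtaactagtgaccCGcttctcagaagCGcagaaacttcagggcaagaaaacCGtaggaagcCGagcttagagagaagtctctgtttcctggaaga
Its level was 4.40 to 13.1 CPM in wild-type FGOs (median 6.50), 7.64 to 19.4 CPM in Dnmt3L-ADD FGOs (median 10.8), 4.22 to 12.4 CPM in Dnmt3a-ADD FGOs (median 8.73) and 9.58 to 35.4 CPM in double mutant FGOs (median 22.3). Double mutant replicates 3, 4, 5, 7 and 8 lay between 17.3 and 35.4 CPM, above all wild-type FGOs, and replicates 1, 2 and 6 between 9.58 and 12.4 CPM, inside the wild-type range. The log2 fold changes were 0.50 ± 0.22 (SE), 0.03 ± 0.23 and 1.39 ± 0.22, and within the class they were 1.12 in the double mutant against replicates 1 to 8 and 0.76 in Dnmt3L-ADD FGOs against replicates 9 to 18. Against replicates 1 to 8 the Dnmt3L-ADD value was 0.23. In Dnmt3a-ADD FGOs the sign depended on the wild-type set, with -0.24 against replicates 1 to 8 and 0.29 against replicates 9 to 18.

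Gm42887 had the widest differences among the members, with higher levels in both single mutants and lower levels in the double mutant. It is a single-exon locus of unknown function whose RNA remains to be tested experimentally in the annotation (class TEC, chr5:69503842-69504960, minus strand). It measured 8.41 to 13.1 CPM in Dnmt3L-ADD FGOs (median 11.2) and 7.96 to 12.95 CPM in Dnmt3a-ADD FGOs (median 10.4), against 0.465 to 1.89 CPM in double mutant FGOs (median 1.27). In wild-type FGOs it measured 0.908 to 8.20 CPM (median 1.72), where replicates 13 (8.20 CPM) and 14 (6.94 CPM) were alone near the single mutants and the other 16 did not exceed 2.41 CPM in replicates 1 to 8 or 2.45 CPM in replicates 9 to 18. The counts behind these levels were low, 13 to 140 per wild-type FGO and 7 to 28 per double mutant FGO. The log2 fold changes were 2.23 ± 0.26 (SE) and 2.17 ± 0.26 in the single mutants and -0.96 ± 0.31 in the double mutant, which became -0.51 against wild-type replicates 1 to 8.

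The RNA of Gm42887 is not unique in the genome. A blastn search against annotated transcripts found 15 other genes that match at least 90% of its 1119 bases at 95.1% to 99.9% identity. The closest, Gm43694 (also on chromosome 5), is identical at 1118 of 1119 bases, and the substitution is C864G (the base of Gm42887, its position from the transcript start, the base of Gm43694). The difference is shown with 40 bases on each side and the differing base in capitals (GRCm38).
Gm42887 chr5:69504057-69504137 minus strand: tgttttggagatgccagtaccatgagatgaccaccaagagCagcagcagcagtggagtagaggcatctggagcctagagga
Gm43694 chr5:32630665-32630745 plus strand: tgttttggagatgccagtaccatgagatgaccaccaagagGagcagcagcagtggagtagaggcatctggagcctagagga
Inside the matched stretch only a read pair that covers this base can tell Gm42887 from Gm43694, and the treatment of reads with several positions is not given in the sources used here. The level of Gm42887 is uncertain for that reason. Wild-type FGOs held 16.1 to 28.4 CPM of Gm43694. The log2 fold changes of this copy, -0.11 (adjusted p = 0.596), -0.11 (adjusted p = 0.527) and -0.20 (adjusted p = 0.235), did not pass the test in any mutant.

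Gm45663 (chr8:104152706-104154337) was both a copy, with 97.1% identity, and the gene whose level followed Gm42887 most closely among genes of at least 5 CPM. The Pearson correlation of log2 CPM was 0.61 over the 42 FGOs after each genotype's mean was removed, a description over libraries that share reads of near-identical sequence. Gm45663 was higher in Dnmt3L-ADD FGOs (24.5 to 36.3 CPM, log2 fold change 0.93 ± 0.11, adjusted p = 1.1e-06) and in Dnmt3a-ADD FGOs (24.6 to 36.7 CPM, 0.87 ± 0.11, adjusted p = 8.49e-07). In double mutant FGOs (11.2 to 18.3 CPM) its log2 fold change of -0.21 ± 0.12 did not pass the test (adjusted p = 0.249). Among wild-type FGOs its highest levels were in replicates 13 (23.0 CPM) and 14 (24.7 CPM), the same oocytes that were high in Gm42887. Both calls of Gm45663 held against each wild-type set, with log2 fold changes of 0.77 to 1.07. The other copies moved in both directions. Gm42553 was higher in both single mutants (0.28 and 0.24) and Gm44087 and Gm20826 in Dnmt3a-ADD FGOs (0.36 and 1.34), while Olfr624 was lower in Dnmt3a-ADD (-0.46) and double mutant FGOs (-0.86) and Gm37110 in the double mutant (-0.34). Of these, none passed against wild-type replicates 1 to 8, where Olfr624 in Dnmt3a-ADD FGOs was 0.14 (adjusted p = 0.379), and Gm20826 was not among the genes tested there. Gm20826 is annotated on chromosome Y, which females lack, so its counts cannot stand for that locus. Its median, without scaling of the library totals, was only 0.35 CPM in wild-type and 0.71 CPM in Dnmt3a-ADD FGOs. Without Gm45663, the copies' summed level was 222 to 336 CPM in wild-type, 239 to 358 CPM in Dnmt3L-ADD, 197 to 346 CPM in Dnmt3a-ADD and 186 to 336 CPM in double mutant FGOs.

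**Figure D2:**
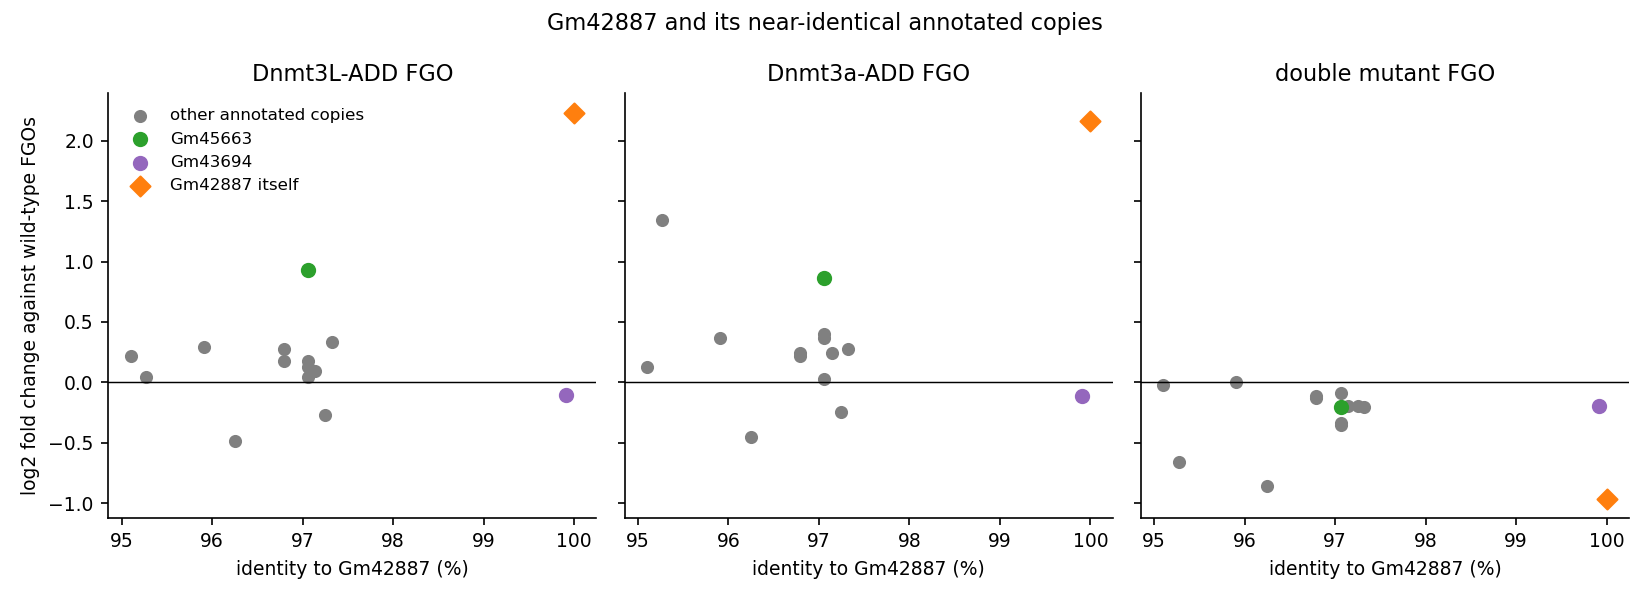
log2 fold change against wild-type FGOs (vertical axis) of Gm42887 and of the 14 annotated copies that passed the filter on low counts, against their identity to Gm42887 in percent (horizontal axis), 1 panel per mutant. Gm42887 (diamond) lies at 2.23, 2.17 and -0.96, Gm43694, the nearest copy, at -0.11, -0.11 and -0.20, and Gm45663 at 0.93, 0.87 and -0.21.

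Counted over the members, an adjusted p under 0.05 with a higher level was reached by 4 of 7 in Dnmt3L-ADD FGOs, where 3.07% of all tested genes were called higher, by 6 of 7 in Dnmt3a-ADD FGOs, where 8.06% were, and by 3 of 7 in double mutant FGOs, where 5.51% were. A fold change over 2 was added to this by 2 members in each mutant, against 0.0636%, 0.293% and 0.178% of tested genes. Since these contrasts picked the members, nothing is read from the counts. The median log2 fold change of the members was 0.55, 0.70 and 0.14, and that of all tested genes -0.03, -0.03 and -0.01.

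Separation from wild type was counted as oocytes above the highest of the 18 wild-type FGOs. Of the 21 pairs of a member and a mutant, 5 did not overlap wild type, namely Gm42887 and Sh3bp2 in Dnmt3L-ADD FGOs (0.0319% of 15668 genes were wholly above wild type) and Sh3bp2, Ide and Dpy19l4 in Dnmt3a-ADD FGOs (0.147%). No member was wholly above wild type in the double mutant (0.0447% of genes). The margin of Gm42887 in Dnmt3L-ADD FGOs was small, with 8.41 CPM in its lowest mutant oocyte and 8.20 CPM in wild-type replicate 13. Against wild-type replicates 9 to 18 the number of pairs without overlap was 9, since Gcc1 in all 3 mutants and Kifc3 in Dnmt3a-ADD FGOs joined, and against replicates 1 to 8 it was 6.

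The double mutant effect was then set against the sum of the effects of the single mutants, in the same fit and on the log2 scale. For 6 of the 7 members the double mutant lay below the sum, as did 47.2% of all tested genes, and for Gm12735 it lay above. The double mutant minus the sum was -5.37 ± 0.44 (SE) for Gm42887, whose single effects add to 4.40. It was -1.08 ± 0.29 for Gcc1 (sum 2.45), -1.03 ± 0.11 for Kifc3 (sum 1.17) and -0.69 ± 0.13 for Sh3bp2 (sum 1.35). For Gcc1 and Sh3bp2 the effect of the double mutant was thus about that of each single mutant. For Kifc3 it was smaller, at 0.14, and 0.21 against wild-type replicates 1 to 8. Ide and Dpy19l4 gave -0.52 ± 0.07 and -0.57 ± 0.10, with sums of 0.54 and 0.61 that came from Dnmt3a-ADD FGOs. Gm12735 gave 0.86 ± 0.35, with a sum of 0.53. These values are made of the contrasts that chose the members and carry no test. With the class of mapped reads as a covariate every member kept the sign of this value, but that of Gm12735 was 0.51, that of Gcc1 -1.49 and that of Gm42887 -4.73.

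**Figure D3:**
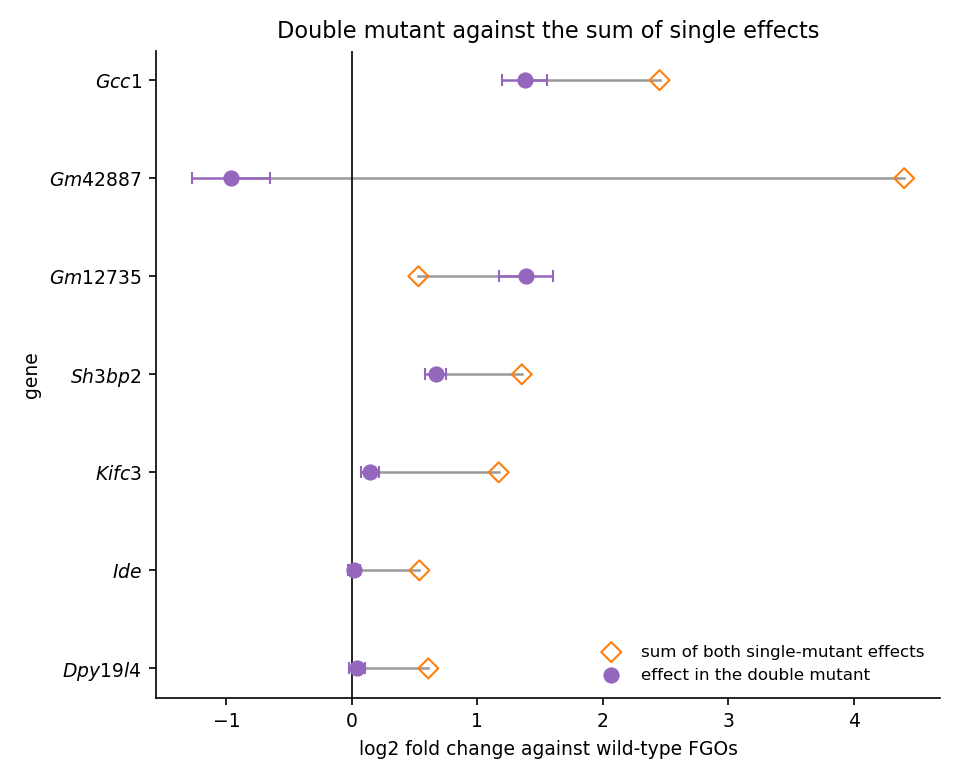
log2 fold change against wild-type FGOs (horizontal axis) for each of the 7 genes, as the sum of both single-mutant effects (open diamonds) and as the effect in the double mutant (filled circles, bars are its SE). The filled circle lies left of the diamond for 6 genes and right of it for Gm12735, and the gap is widest for Gm42887, from 4.40 to -0.96.

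Levels in wild-type MII oocytes are relative and come from other cells than the FGOs. For MII oocytes the paper's fertilization methods describe females of a wider age range, injected with inhibin antiserum and human chorionic gonadotropin. No injection is given for FGOs, so stage, age and treatment cannot be told apart here. MII oocytes were compared with the wild-type FGOs in a fit of all 52 libraries (edgeR quasi-likelihood test). At an adjusted p under 0.05, MII oocytes had 16.5% of 15784 genes at a higher and 22.6% at a lower level. Gm42887 was higher in MII oocytes, at 1.49 to 12.1 CPM (median 2.75, log2 fold change 1.10 ± 0.30, adjusted p = 0.00273). The rise came from MII replicates 3 (9.28 CPM), 4 (7.86 CPM), 7 (7.89 CPM) and 8 (12.1 CPM), and the other 6 had at most 2.79 CPM, so the groups overlapped. The same 4 oocytes held the highest levels of Gm45663 (57.3, 44.5, 24.9 and 25.1 CPM, against 16.3 to 20.5 CPM in the others). These 4 belong to the class with more reads mapped, as do 3 oocytes with low Gm42887, and the part of the class was not tested here. Against wild-type FGO replicates 9 to 18 alone the difference of Gm42887 was 0.83 with an adjusted p of 0.065.

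Gm12735 was lower in MII oocytes (3.19 to 6.45 CPM, median 4.22, log2 fold change -0.82 ± 0.21, adjusted p = 0.00187), again not past the threshold against replicates 9 to 18 alone (-0.54, adjusted p = 0.0543). Sh3bp2 was slightly higher (130 to 159 CPM, log2 fold change 0.22 ± 0.07, adjusted p = 0.0105), with an adjusted p of 0.0564 against replicates 1 to 8. Ide was slightly higher too (79.3 to 95.8 CPM, 0.15 ± 0.04, adjusted p = 0.00414), with an adjusted p of 0.091 against replicates 9 to 18. Gcc1 (7.90 to 26.2 CPM, 0.25 ± 0.19, adjusted p = 0.295), Kifc3 (51.1 to 66.0 CPM, -0.06 ± 0.06, adjusted p = 0.439) and Dpy19l4 (38.3 to 49.8 CPM, 0.04 ± 0.06, adjusted p = 0.625) did not pass the test. Against replicates 9 to 18 alone Gcc1 did pass (0.54, adjusted p = 0.0118). In every member but Gm42887, all MII oocytes lay below the median of the mutant group in which the gene was highest. Since high mutant levels chose the members, nothing is read from this position.

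The wild-type FGOs themselves could be split without any mutant, into replicates 1 to 8 and 9 to 18. Of 14664 genes, 11.2% were higher and 14.2% lower in replicates 9 to 18, and of the members only Ide passed (83.2 ± 4.24 against 75.0 ± 4.93 CPM, SD, n = 10 and 8, log2 difference 0.15 ± 0.05 SE, adjusted p = 0.0344, and 0.0999 when every gene with a count was tested). The log2 difference of Gcc1 was -0.56 ± 0.26 (adjusted p = 0.126), of Gm12735 -0.53 ± 0.22 (adjusted p = 0.0861) and of Gm42887 0.72 ± 0.40 (adjusted p = 0.194). For Ide the difference between the wild-type sets was smaller than the 0.56 between Dnmt3a-ADD and all wild-type FGOs. For Sh3bp2, Kifc3 and Dpy19l4 it lay between -0.05 and 0.10, with adjusted p-values of 0.737, 0.305 and 0.584.

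Around the members, 36 annotated genes overlap or lie within 50 kb, and 20 of them passed the filter on low counts. In Dnmt3L-ADD FGOs 1 of the 20 was higher (3.07% of all genes) and 1 lower (3.06%), and in Dnmt3a-ADD FGOs 2 were higher (8.06%) and 2 lower (7.61%). In double mutant FGOs 5 were higher (5.51%) and 0 lower (6.74%). The median log2 fold change of the 20 was 0.03, -0.01 and 0.05. The 5 were Sfi1, Fau-ps2, Arf5, March5 and Kif11, and against wild-type replicates 1 to 8, the class of the double mutant, none of them passed.

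Sfi1, 53 bases from Gm12735, had a log2 fold change of 0.99 ± 0.25 in the double mutant (adjusted p = 0.00825), which was 0.52 ± 0.27 (adjusted p = 0.465) against replicates 1 to 8. It measured 15.6 to 83.7 CPM in wild-type FGOs (median 25.1, and 49.9 in replicates 1 to 8) and 32.0 to 102 CPM in double mutant FGOs (median 80.7), with overlap. Fau-ps2, a pseudogene 2191 bases away, had 1.24 ± 0.36 (adjusted p = 0.0225), and 0.57 ± 0.37 (adjusted p = 0.606) against replicates 1 to 8. Its level was low, 0.114 to 3.32 CPM in wild-type (median 0.734) and 1.17 to 4.25 CPM in double mutant FGOs (median 2.745), with overlap. Sfi1 was also the gene most like Gm12735, with a correlation of 0.84 within genotypes over the 42 FGOs, and the transcripts of both come from the same strand. Drg1, a GTPase gene whose span holds Gm12735 with no shared exonic base, was lower in Dnmt3L-ADD FGOs (-0.23 ± 0.05, adjusted p = 0.00935, and -0.24 against replicates 9 to 18). Its values were -0.15 ± 0.05 in Dnmt3a-ADD FGOs (adjusted p = 0.0445, and 0.112 and 0.061 against the wild-type sets) and 0.05 ± 0.05 in the double mutant.

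Ints8, a subunit gene of the Integrator complex 7057 bases from Dpy19l4, rose in Dnmt3a-ADD FGOs (log2 fold change 0.29 ± 0.05, adjusted p = 3.6e-05, and 0.27 and 0.30 against the wild-type sets, both past the threshold). It had 0.04 ± 0.05 and -0.02 ± 0.05 in the other mutants. It measured 85.8 to 110 CPM in Dnmt3a-ADD FGOs (median 101) against 72.8 to 98.0 CPM in wild-type FGOs (median 82.1), with overlap. Esrp1, 9796 bases away, had -0.01 ± 0.03 in the same comparison (adjusted p = 0.882). Near Gcc1, Snd1 rose in both single mutants (0.22 each) and passed against each wild-type set too (0.18 to 0.27). Zfp800, 18086 bases from Gcc1, had -1.53 ± 0.46 in Dnmt3a-ADD FGOs (adjusted p = 0.0184), but -2.26 against replicates 1 to 8 and -0.47 (adjusted p = 0.4) against replicates 9 to 18. Arf5, which shares 313 exonic bases with Gcc1 on the opposite strand, had 0.30 ± 0.08 in the double mutant (adjusted p = 0.00887) and 0.16 (adjusted p = 0.465) against replicates 1 to 8. Of the neighbours of Ide, March5 and Kif11 had 0.27 ± 0.06 and 0.28 ± 0.07 in the double mutant, and 0.12 and 0.15 against replicates 1 to 8 (adjusted p = 0.322 and 0.538). In Dnmt3a-ADD FGOs, where Ide was high, they had 0.01 ± 0.06 and 0.12 ± 0.07.

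**Figure D4:**
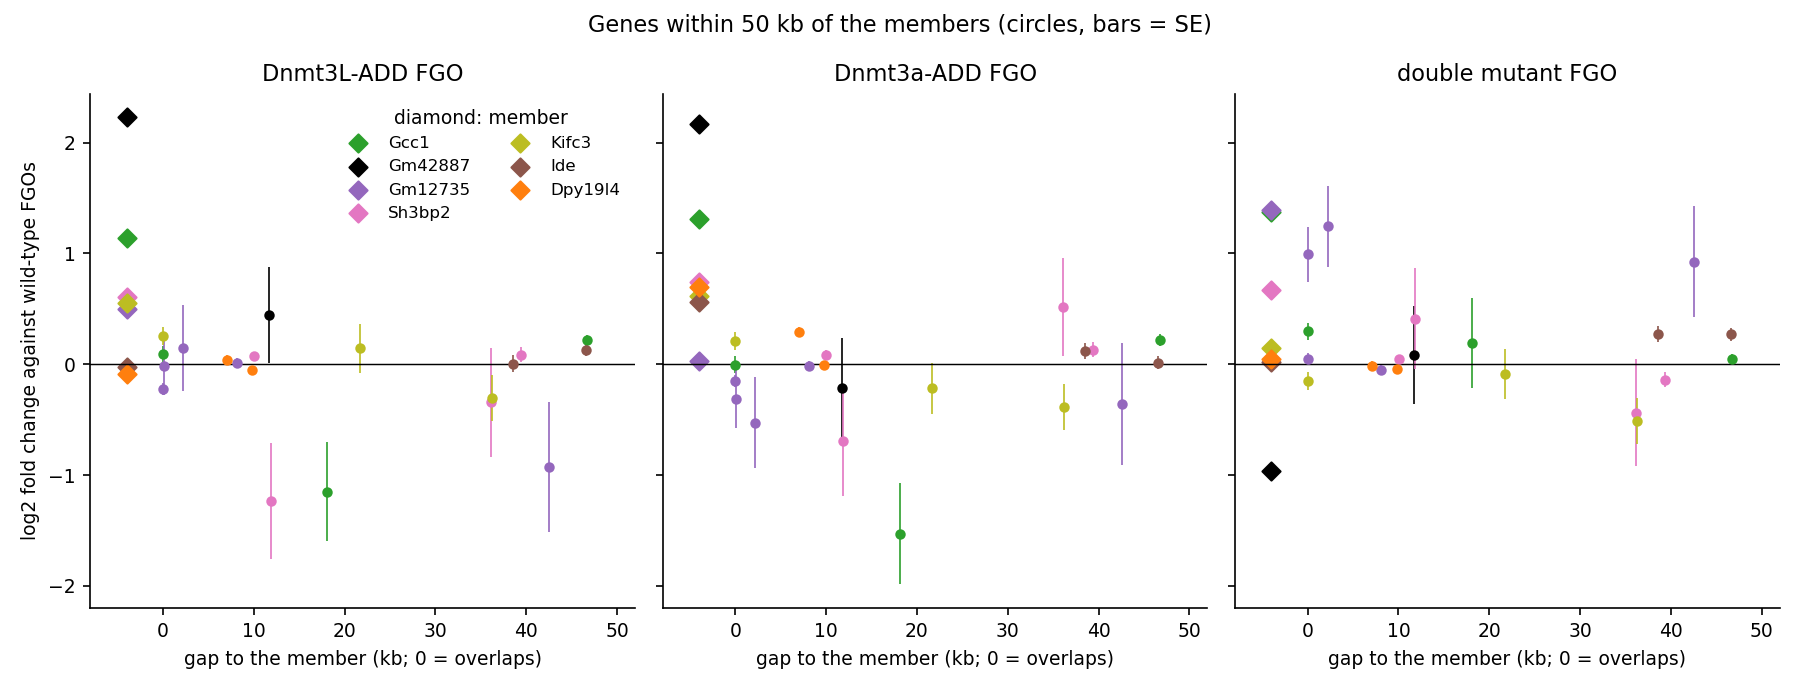
log2 fold change against wild-type FGOs (vertical axis, bars are SE) of the 20 tested genes within 50 kb of a member (circles, in the member's colour) against their gap to it in kb (horizontal axis, 0 where they overlap), 1 panel per mutant. Diamonds at the left give the members. Next to Gm12735 (purple), Sfi1 and Fau-ps2 lie at 0.99 and 1.24 in the double mutant (0.52 and 0.57 against wild-type replicates 1 to 8), while the median neighbour lies at 0.05. Fau-ps2 has a low level, with a median of 0.734 CPM in wild-type FGOs.

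Relatives of the proteins were read from family lists that exclude the members. The shares of all tested genes called higher are 3.07% in Dnmt3L-ADD, 8.06% in Dnmt3a-ADD and 5.51% in double mutant FGOs. Of 8 further golgins and Arl1, listed with them, 0 passed in Dnmt3L-ADD FGOs. In Dnmt3a-ADD FGOs 3 of the 9 were higher, namely Golga4, Golga3 and Golga5 (log2 fold changes 0.30, 0.24 and 0.30). Against wild-type replicates 9 to 18 these were 0.12, 0.09 and 0.16, and of the 3 only Golga5 passed (adjusted p = 0.0443). In the double mutant Arl1 was called higher (0.19) and Golga2 and Golga3 lower (-0.29 and -0.23). Of 3 further kinesin-14 genes 0 passed in a mutant. Of 6 further M16 metallopeptidases, Pmpcb, a mitochondrial processing subunit, was called higher in Dnmt3L-ADD and double mutant FGOs (0.20 and 0.28). Nrd1 and Uqcrc1 were called lower in Dnmt3a-ADD FGOs (-0.30 and -1.06), and Uqcrc1 not against replicates 9 to 18 (-0.69, adjusted p = 0.105).

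Of 3 further DPY19 genes Dpy19l1 was called higher in all 3 mutants, with log2 fold changes of 0.32 ± 0.09 (adjusted p = 0.0218), 0.39 ± 0.09 (adjusted p = 0.00161) and 0.33 ± 0.09 (adjusted p = 0.0122). In Dnmt3a-ADD FGOs it passed against each wild-type set (0.28 and 0.48). Of 12 tested partners of 3BP2, 1 was higher in Dnmt3L-ADD FGOs (the exchange factor gene Vav2, 0.30), 2 in Dnmt3a-ADD FGOs (Vav2, 0.32, and the kinase gene Abl1, 0.37) and 1 in the double mutant (the tankyrase gene Tnks2, 0.36, adjusted p = 0.0493). Against replicates 9 to 18, Vav2 in Dnmt3L-ADD FGOs and Abl1 did not pass (adjusted p = 0.0984 and 0.0577). All 6 calls of relatives in the double mutant were lost against replicates 1 to 8, with adjusted p from 0.214 to 0.986. In MII oocytes, where 16.5% of all genes were higher and 22.6% lower, 3 golgins were higher and 1 lower, 2 kinesin-14 genes were lower (Kifc1 by 0.51 and Kifc5b by 0.84), 1 M16 gene was higher and 3 lower, 0 DPY19 genes passed, and 4 partners of 3BP2 were higher and 2 lower.

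In E9 embryos from double mutant oocytes the reads had been assigned to the maternal and paternal alleles. Of the members, 5 are listed, and Gm42887 and Gm12735 were not analysed here. The median autosomal gene with at least 10 allelic counts had a maternal share of 51.4%, 58.8% and 51.3% in embryos 1 to 3. Ide lay above it in every embryo, at 70.3% (95% Wilson interval 67.8% to 72.8%, 911 maternal and 384 paternal counts), 72.4% (70.3% to 74.5%) and 63.2% (60.7% to 65.6%). Its mean was 68.6% ± 4.86 (SD, n = 3). Of the autosomal genes with at least 10 allelic counts, 94.5%, 80.4% and 87.5% had a lower maternal share than Ide in embryos 1 to 3. Gcc1 had 59.6%, 68.2% and 50.6% (mean 59.4% ± 8.79), Sh3bp2 53.2%, 60.6% and 52.5% (55.4% ± 4.46), Dpy19l4 48.9%, 45.2% and 46.4% (46.8% ± 1.87) and Kifc3 42.9%, 38.1% and 43.2% (41.4% ± 2.83). The intervals of Gcc1 lay above the median gene in embryos 1 (54.0% to 65.0%) and 2 (64.0% to 72.0%) and held it in embryo 3. In embryo 2 the intervals of Kifc3 (29.9% to 47.1%) and Dpy19l4 (37.6% to 53.0%) lay below the embryo's median gene, and in the other embryos they held it. The maternal allele is that of the mutant line on a C57BL/6J background and the paternal allele that of JF1, so parent and strain cannot be told apart here. The intervals cover counting error only, and no control embryos were compared here.

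**Figure D5:**
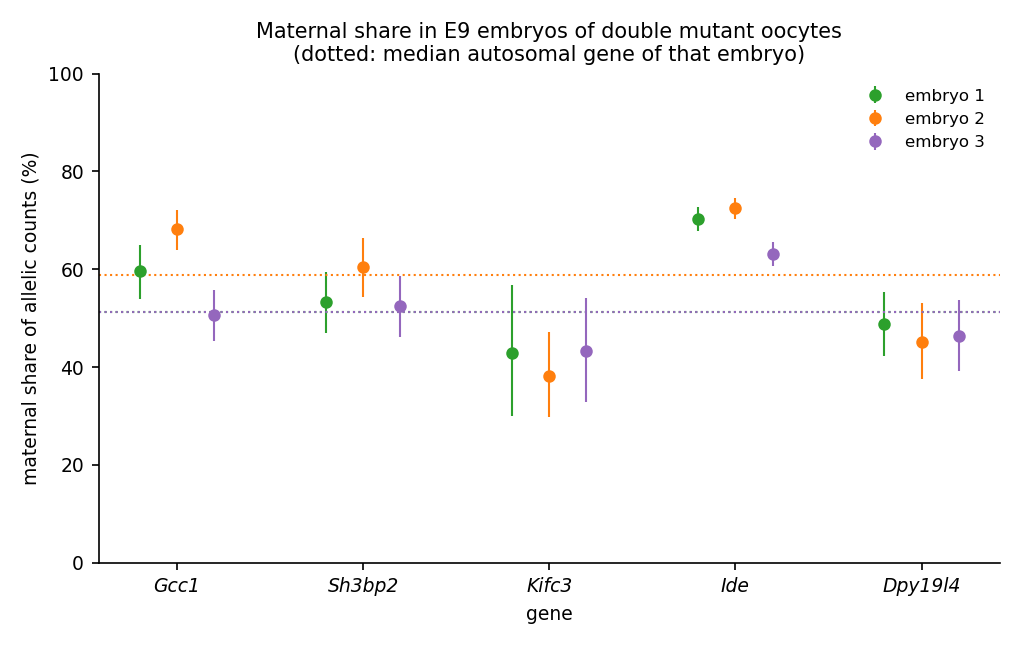
Maternal share of allelic counts in percent (vertical axis, from 0 to 100) for the 5 listed genes (horizontal axis) in each of the 3 E9 embryos, with 95% Wilson intervals as bars and dotted lines at the median autosomal gene of each embryo. Ide lies above the line in all 3 embryos, at 63.2% to 72.4%, and 80.4% to 94.5% of autosomal genes have a lower share.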

How the data were processed

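STAR and mm10 are named for the alignment, and the authors deposited raw counts per gene in 1 featureCounts table per oocyte, HTSeq being named as well. Annotation release, strand setting and the handling of reads with several positions are not given in the sources used here. The deposited embryo tables hold maternal and paternal counts per gene, of which 8 columns that name no sample of the series were not used.

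Counts were tested with edgeR 4.0.16 in R 4.3.3 (TMM scaling, filterByExpr at 10 counts, the quasi-likelihood F test, and a threshold of 0.05 on p-values adjusted after Benjamini and Hochberg), and the procedure was tested on simulated data. Correlations used log2 of CPM plus 0.5. The common coefficient of variation between FGOs was 25.2%. The most similar pair of libraries still differed by more than sampling (chi-square per degree of freedom 5.48), so none was a duplicate. Alternatives were DESeq2 1.42.0, edgeR's exact test, other filters, wild-type sets and covariates, a replicate block and each library left out. Promoters came from RefSeq (GRCm38.p6). Transcripts of GENCODE vM21, which places 86.1% of the files' genes at the same coordinates, were searched for copies with blastn 2.17.0 (at least 50 bases and 95% identity). The members, the lists and the rule for named genes (members, mutated genes, genes within 50 kb, the 3 most like genes, family lists) were chosen with earlier results of these data known. Some results on a neighbouring gene and on sequence are not reported here.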

Additional observations from a re-analysis of the deposited data

Results flagged for a closer look

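Among 28 groups of 8 or 10 oocytes (7 genes in the 3 mutants and in MII oocytes), 1 had an oocyte far from the rest by Dixon's criterion, which chance alone meets in about 1 group of 20. Gm12735 in Dnmt3L-ADD FGO replicate 2 measured 19.4 CPM, the highest of its group, and its distance to the next oocyte (12.8 CPM) was 0.557 of the group's range. The same oocyte also held the group's highest level of the neighbour Sfi1 (57.7 CPM) and of Kifc3 (114 CPM). Its levels of Sh3bp2 (158 CPM), Ide (64.3 CPM), Dpy19l4 (33.0 CPM) and Gm42887 (8.41 CPM) were the group's lowest. Gcc1 (32.6 CPM) lay inside the group's range. The library had the highest total count of all oocyte libraries (23739871), and the part of this was not tested. Without this oocyte the log2 fold change of Gm12735 in Dnmt3L-ADD FGOs was 0.32 in place of 0.50.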

How the results depend on the processing

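The log2 fold changes of the members in the mutants kept the direction of every called value under all 189 recomputations with another setting and all 882 with 1 library left out. Uncalled values changed sign with the wild-type set for Gm12735 in Dnmt3a-ADD FGOs and for Ide in Dnmt3L-ADD and double mutant FGOs. The number of genes called higher did move. For Dnmt3L-ADD (483 as reported), Dnmt3a-ADD (1268) and double mutant FGOs (866) it was 1574, 2058 and 69 against wild-type replicates 1 to 8, while against replicates 9 to 18 it reached 3134 in the double mutant, and 134 with the class of mapped reads as a covariate. With every gene of at least 1 count tested it was 233 in Dnmt3L-ADD and 496 in double mutant FGOs. With granulosa markers as a covariate it was 143 in Dnmt3L-ADD and 801 in Dnmt3a-ADD FGOs. With a fold change over 2 it was 10, 46 and 28, and 1452 of 6170 genes in MII oocytes and 546 of 3720 between the wild-type sets. The cause was not tested.

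With 1 library left out the counts ran from 281 to 550, 874 to 1274 and 513 to 1422. The Dnmt3L-ADD count was lowest without its replicates 3 (281), 7 (287) and 6 (288), and the double mutant count was 1407 and 1422 without wild-type replicates 5 and 6 and 513 and 532 without double mutant replicates 3 and 4.

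Same-numbered oocytes of different groups did not deviate together (median r 0.012, from -0.667 to 0.528), so the numbers pair nothing. With the replicate number as a block the counts were 1477, 2048 and 66. Among FGOs only wild type has numbers 9 to 18, so the block takes those oocytes out of the contrasts. This fit is therefore close to the one against wild-type replicates 1 to 8 and is no separate check. In MII oocytes the sign turned for Gcc1 (-0.017) and Kifc3 (0.010) against replicates 1 to 8 and for Dpy19l4 with the block (0), none of which was called. The pairs without overlap were 9 against wild-type replicates 9 to 18 in place of 5, and the median maternal share of the 5 members was 50.4% in place of 55.4% with both alleles scaled to equal totals (41.9% for Dpy19l4 and 36.8% for Kifc3; leaving out each embryo was added after seeing the data and moved it by less than the SD). The calls of neighbours, copies and relatives were set against each wild-type set after seeing the data, of which 45 still passed, 27 no longer passed and 1 turned sign (Olfr624 in Dnmt3a-ADD FGOs, 0.143). In the double mutant the calls of 5 neighbours, 2 copies and 6 relatives were lost against replicates 1 to 8, and the same calls held against replicates 9 to 18. Low counts limit Gm42887, near-identical copies leave its level uncertain, and the class of mapped reads limits every statement on the double mutant.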

Other observations

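Within genotypes, the members varied mostly apart from each other. Over the 42 FGOs the highest Pearson correlation between 2 members was 0.54 (Gcc1 and Gm12735) and the lowest -0.39 (Gm12735 and Sh3bp2), on log2 levels with each genotype's mean removed, as a description over libraries that share depth and scaling. Gcc1 was most like Polr3e (0.78), Nupl2 and Ola1 (0.76 each), Sh3bp2 most like Rnf185 (0.80), Foxk2 and Siah2 (0.79 each), Kifc3 most like Axin1 (0.75), Papss1 (0.72) and Clip2 (0.70), Ide most like Mapk1ip1 (0.66), Pole (0.64) and Dynlrb1 (0.61), and Dpy19l4 most like Twf2 (0.68), Ms4a1 (0.66) and Alg10b (0.65). Besides Sfi1, Gm12735 was most like Cdc14b (0.79) and Fam208a (0.78), and besides Gm45663, Gm42887 was most like Gcnt2 (0.57) and Nyap2 (0.54).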
